A study of Mus musculus with 36 samples.

Results

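Liver RNA of calorie-restricted (CR) C57BL/6J mice was compared with liver RNA of mice whose feeding was restricted in time without fewer calories (TR, TR.al in the labels). The comparison holds 6 CR and 6 TR liver libraries, 12 of the 36 in the series, which also covers ad libitum (AL) mice and inguinal white adipose tissue (iWAT, fat under the skin of the groin). All mice had spent 16 weeks on their diet, and 6 AL liver libraries give the reference level on free feeding. The question behind the contrast is what fewer calories add in liver to a feeding schedule that already contains a daily fast. The sex and age of the mice, the size of the calorie cut, the hours of access to food and the time of sampling are not stated in the labels, so the time since the last meal and the diet cannot be told apart. The authors' deposited table for this contrast holds 12593 genes, and the one for transcripts holds 26042 transcripts. Both give a fitted log2 fold change, a mean level, a likelihood-ratio statistic and an adjusted p for the groups, with no value per library, so spread and depth per library are unknown and the p-values measure the spread between these libraries only.

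The livers of the CR and TR mice differed in few genes. Of 12593 genes in the authors' deposited table, 59 passed an adjusted p under 0.05, which is 0.469% of the genes tested. In CR liver 20 genes were higher (0.159% of those tested) and 39 were lower (0.31%). The higher genes were led by 8 genes of major urinary proteins, male-typical pheromone carriers, and by Elovl3, an elongase of very long fatty acids. The lower genes were led by the female-typical cytochromes P450 Cyp2b13 and Cyp2a4 and also held Cyp7a1, which catalyses the limiting first step of bile acid formation, and Igfbp2, a binding protein of insulin-like growth factors. The log2 fold change was at least 1 in size in 24 of the called genes, 14 higher and 10 lower in CR.

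An approximate standard error (SE) was taken for each gene by dividing the size of its log2 fold change by the root of its likelihood-ratio statistic, and its median was 0.14 log2 units. The approximate 95% interval lay within 1 log2 unit of 0 for 11721 genes (93.1%) and within 0.5 for 7901 genes (62.7%). The median log2 fold change of all genes was 0.01. When the deposited statistics were read against an F distribution with 1 and 10 degrees of freedom, a stricter reference for 12 libraries, 0 genes passed, the smallest adjusted p was 0.256, and 845 genes, all 59 called ones among them, had an unadjusted p under 0.05. Just inside the threshold the adjusted p reached 0.0473 (Esrra), and just outside it Sucnr1 (log2 fold change 0.50), Nat8 (0.62) and Tmem189 (-0.41) each stood at 0.0560.

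**Figure D1:**
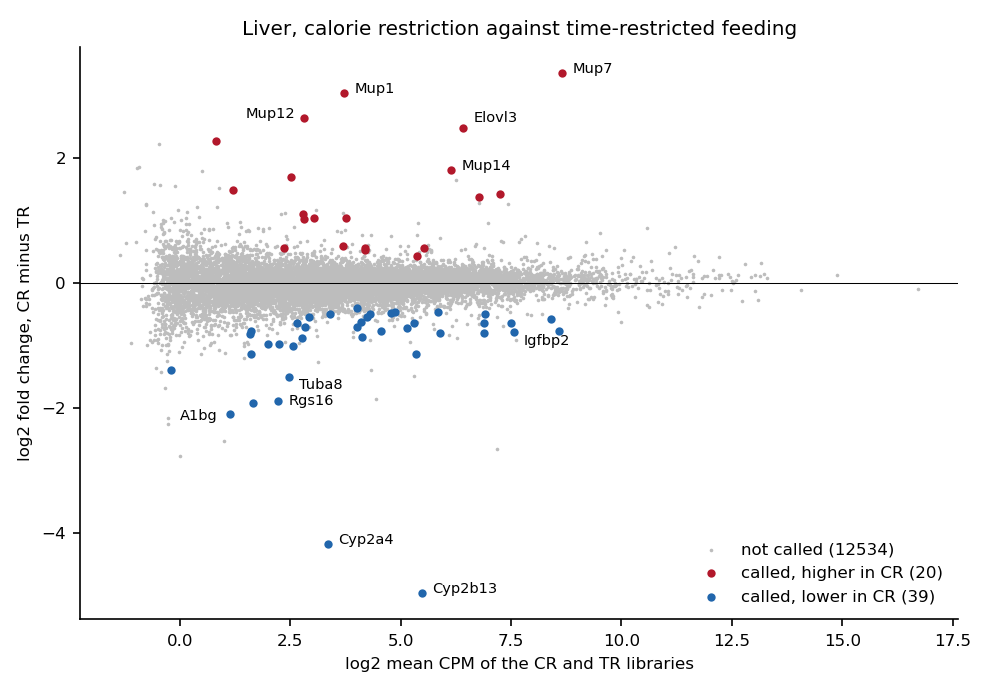
Log2 fold change of CR minus TR liver (vertical axis) against the log2 mean CPM of both groups (horizontal axis) for all 12593 genes, with the 20 genes called higher in CR in red and the 39 called lower in blue. Mup7 lies highest among the called genes at 3.37 and Cyp2b13 lowest at -4.97, and the grey points are genes that did not pass.

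Sex-biased expression is a hallmark of mouse liver. Growth hormone reaches the male liver in pulses with gaps and the female liver more steadily, and the signal runs through the growth hormone receptor, JAK2 and STAT5b to sets of male-biased and female-biased genes, with repressors such as BCL6 and CUX2 among the downstream factors. Major urinary proteins are small lipocalins made by hepatocytes, released into the blood and passed into urine, where they bind volatile pheromones. They are known to depend on growth hormone and on nutrition. The sex of these mice is not stated, and 4 Y-linked genes, which only males carry, were in the table: Ddx3y (log2 fold change 0.02), Eif2s3y (0.16), Kdm5d (-0.05) and Uty (-0.06), none of which passed. Their fitted levels in CR and TR liver, in CPM (defined below), were 44.1 and 43.6, 59.2 and 52.9, 19.9 and 20.6, and 9.23 and 9.62. Both groups thus held males, and Xist, the RNA of the inactive X of females, had no row.

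The major urinary protein genes lie in a cluster on chromosome 4, and most of their upstream sequences are close copies, so they are shown here as the largest group of the called genes. Within 250 bases before the recorded start, the motif ATCAATA, recognised by factors of the ONECUT family, was found on either strand in 12 of the 12 major urinary protein genes with a promoter window. Among 32851 windows of the same length 1.86% hold it. The stretches run 5′ to 3′ on the minus strand of GRCm38.p6 (RefSeq), with the motif in capitals. Mup7 lies at chr4:60070476-60070554, Mup14 at chr4:61304082-61304160, Mup11 at chr4:60662502-60662580, Mup10 at chr4:60582291-60582369 and Mup3 at chr4:62087399-62087477.
Mup7: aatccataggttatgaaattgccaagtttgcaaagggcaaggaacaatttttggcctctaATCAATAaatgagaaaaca
Mup14: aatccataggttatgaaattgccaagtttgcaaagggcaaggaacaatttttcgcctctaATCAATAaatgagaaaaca
Mup11: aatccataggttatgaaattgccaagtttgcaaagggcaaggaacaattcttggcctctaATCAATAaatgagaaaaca
Mup10: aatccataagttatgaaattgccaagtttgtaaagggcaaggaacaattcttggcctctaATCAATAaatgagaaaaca
Mup3: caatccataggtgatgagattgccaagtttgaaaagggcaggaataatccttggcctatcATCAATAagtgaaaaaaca
Of the 79 bases shown, Mup14 and Mup11 each differ from Mup7 at 1 position and Mup10 at 3, compared base by base without gaps. Mup3 differs at 31, and Mup21, not shown, at 29. The Mup11 stretch is the same letter for letter in 7 genes, of which Mup2, Mup9, Mup11 and Mup19 were called and Mup15, Mup17 and Mup18 were not. Mup10 and Mup3 were not called either, with log2 fold changes of 0.86 and 0.41, so genes with the motif lay on both sides of the threshold. Mup1 and Mup12 had no window.

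All 17 major urinary protein genes of the list were measured, and 8 were higher in CR than in TR liver, against 0.159% of all genes. None was lower, 16 had a log2 fold change above 0, 15 had an unadjusted p under 0.05 in that direction (4.18% of all genes did), and the list's median was 1.37, beside 0.01 over all genes. Fitted levels, as CPM (read counts scaled to library size), were taken from the deposited mean and fold change, and the AL level from the deposited comparison with AL, which was normalized separately. Mup7 stood at 732 CPM in CR, 71.0 in TR and 2191 in AL liver. In the authors' deposited table this is a log2 fold change of 3.37 for CR minus TR (approximate SE 0.76, 10.3-fold, adjusted p 0.00551, log2 mean CPM 8.65), with -1.58 for CR and -4.95 for TR against AL. Mup1 stood at 23.7, 2.85 and 58.6 CPM, with a log2 fold change of 3.05 (SE 0.59, 8.30-fold, adjusted p 0.000296, log2 mean CPM 3.73) and -1.31 and -4.36 against AL. Both diets thus lay under AL, and the TR livers lay lowest. The group differences of Mup7 and Mup1 were the 2 largest among the genes higher in CR.

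Mup12 followed with a log2 fold change of 2.64 (SE 0.58, 6.25-fold, adjusted p 0.00405, log2 mean CPM 2.81) and -1.29 and -3.93 against AL. Mup9, at 2.92 CPM in CR and 0.605 in TR, gave 2.27 (SE 0.53, 4.82-fold, adjusted p 0.00864, log2 mean CPM 0.82) and -1.13 and -3.40 against AL, the CR value not past the threshold. Mup14 gave 1.82 (SE 0.41, 3.53-fold, adjusted p 0.00484, log2 mean CPM 6.14) and -1.79 and -3.61 against AL. In 3 further members the fold was smaller. Mup11 gave 1.42 (SE 0.37, 2.68-fold, adjusted p 0.0347, log2 mean CPM 7.25) with -1.22 and -2.64 against AL, and Mup19 gave 1.37 (SE 0.34, 2.59-fold, adjusted p 0.0152, log2 mean CPM 6.78) with -1.58 and -2.95. Mup2 gave 1.11 (SE 0.27, 2.16-fold, adjusted p 0.0131, log2 mean CPM 2.79), and against AL its values were 0.34 in CR, not past the threshold, and -0.77 in TR. Mup2 was the only called member with a CR level above the AL level, 9.44 against 7.47 CPM.

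The most abundant family members were not called. Mup3 stood at 5418 CPM in CR and 4072 in TR (log2 fold change 0.41, adjusted p 0.551) and Mup20, which encodes the pheromone darcin, at 1990 and 1074 CPM (0.89, adjusted p 0.234). Mup22 gave 0.80, Mup10 0.86, Mup21 0.60, Mup16 1.18, Mup17 1.85, Mup15 2.23 and Mup18 -0.14, none past the threshold. Summed over the 17 genes, the fitted level was 9752 CPM in CR and 6055 in TR liver. Mup15 and Mup17 were near 0 in both diets, at 1.19 and 0.820 CPM in CR, against 347 and 161 CPM in AL liver. The copies share much of their transcript sequence: between 61.6% (Mup1) and 100% (Mup19) of the 50-base words of the called genes also occur in transcripts of other genes, so the split of reads between single Mup genes is uncertain. The Mup calls and counts given above are thus not separate evidence. Mup3 and Mup21 share least, 13.3% and 19.3%.

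Male-biased genes outside the cluster held 1 call, Elovl3. Of 38 listed, 35 were measured, 5 were higher in CR (Elovl3 and the list's members Mup1, Mup7, Mup11 and Mup12), against 0.159% of all genes, and none was lower, with a median log2 fold change of 0.59. A further count, at an unadjusted p under 0.05, gave 18 higher and 1 lower (Trim24, -0.42), where 4.18% and 5.84% of all genes passed in those directions. Mup1, Mup7, Mup11, Mup12, Mup20 and Mup21 are among the 18, and they and Mup3 enter the median. Neither value is thus independent of the cluster. Elovl3 stood at 145 CPM in CR, 26.0 in TR and 77.3 in AL liver, so the diets lay on opposite sides of AL. Its deposited log2 fold change was 2.48 (SE 0.46, 5.59-fold, adjusted p 0.000194, log2 mean CPM 6.42), with 0.91 for CR and -1.58 for TR against AL, both past the threshold. Hsd3b5, a 3-ketosteroid reductase, was at 116 CPM in CR and 36.9 in TR (1.65, SE 0.75, adjusted p 0.394). Cyp4a12a, a fatty acid hydroxylase, was at 243 and 101 CPM (1.27, adjusted p 0.0959). Cyp7b1, an oxysterol hydroxylase of the alternative bile acid pathway, was at 166 and 85.2 CPM (0.96, adjusted p 0.0781). For these 3 the level in CR lay closer to AL (105, 294 and 160 CPM) than the level in TR did.

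Female-biased genes made up the other end. Of 42 listed, 32 were measured, 4 were lower in CR (Cyp2b13, Cyp2a4, A1bg and Fmo2) against 0.31% of all genes, and none was higher. The median was -0.57, 27 members had a log2 fold change under 0, and 13 had an unadjusted p under 0.05 in that direction (5.84% of all genes did). Cyp2b13, a P450 close to absent from male liver, stood at 2.75 CPM in CR, 86.1 in TR and 0.0111 in AL. Its deposited log2 fold change was -4.97 (SE 1.12, 31.3-fold lower in CR, adjusted p 0.00551, log2 mean CPM 5.47). It has no row for CR in the comparison with AL and is called higher in TR there. Since the AL level is close to 0, the size of that fold, and the AL level computed from it, depend on the prior count. Cyp2a4, a steroid 15-alpha-hydroxylase, stood at 1.06 CPM in CR, 19.3 in TR and 0.0967 in AL. It gave -4.18 (SE 0.80, 18.1-fold lower in CR, adjusted p 0.000296, log2 mean CPM 3.35), with 3.46 for CR and 7.65 for TR against AL, both past the threshold.

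A1bg, a secreted glycoprotein of the immunoglobulin family, stood at 0.833 CPM in CR, 3.57 in TR and 1.83 in AL. The deposited values were -2.10 (SE 0.48, 4.28-fold lower, adjusted p 0.00551, log2 mean CPM 1.14), with -1.13 and 0.97 against AL, neither past the threshold. Fmo2, a flavin monooxygenase, was at 31.2, 48.3 and 26.7 CPM and gave -0.63 (SE 0.17, 1.55-fold lower, adjusted p 0.0466, log2 mean CPM 5.31), with 0.22 and 0.86 against AL, the latter past the threshold. Cux2, the female-specific repressor, was at 0.286 and 1.37 CPM (-2.26, SE 0.63, adjusted p 0.0648). Slc22a26, an organic anion transporter, was at 9.40 and 34.1 CPM (-1.86, adjusted p 0.108). The male-biased list above shares 4 of its 5 called genes with the major urinary protein list, so the counts of those lists overlap.

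Cyp2b13 and Cyp2a4 each have a near copy close by on chromosome 7 that was not called, and the promoters of each pair are shown to make that contrast visible. They run 5′ to 3′ on the plus strand of GRCm38.p6 (RefSeq), with positions that differ within a pair in capitals. Cyp2b13 lies at chr7:26061345-26061494, Cyp2b9 at chr7:26173259-26173408, Cyp2a4 at chr7:26307009-26307158 and Cyp2a5 at chr7:26835155-26835304.
Cyp2b13: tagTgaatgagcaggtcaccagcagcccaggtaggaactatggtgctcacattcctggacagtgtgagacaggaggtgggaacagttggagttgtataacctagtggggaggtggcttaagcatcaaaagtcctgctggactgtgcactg
Cyp2b9: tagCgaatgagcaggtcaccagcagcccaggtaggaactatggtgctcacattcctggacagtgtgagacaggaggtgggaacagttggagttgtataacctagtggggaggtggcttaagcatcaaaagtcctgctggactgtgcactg
Cyp2a4: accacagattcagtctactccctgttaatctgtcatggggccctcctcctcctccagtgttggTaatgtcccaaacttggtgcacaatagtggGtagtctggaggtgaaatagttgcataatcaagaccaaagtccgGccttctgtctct
Cyp2a5: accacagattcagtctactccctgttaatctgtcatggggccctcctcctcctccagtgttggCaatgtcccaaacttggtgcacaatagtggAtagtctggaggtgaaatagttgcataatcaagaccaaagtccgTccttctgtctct
Over the 250 bases compared, the Cyp2b13 and Cyp2b9 windows differ at 2 positions (99.2% identical). The Cyp2a4 and Cyp2a5 windows differ at 4 of 249 (98.4% identical). Cyp2b9 stood at 136 CPM in CR, 257 in TR and 2.64 in AL (log2 fold change -0.92, SE 0.54, adjusted p 0.574), so it rose against AL in both diets (5.69 and 6.61). Cyp2a5, a coumarin hydroxylase, stood at 1631, 2002 and 562 CPM (-0.30). In the transcripts 27.3% of the 50-base words of Cyp2b13, and a larger share of those of Cyp2a4, also occur in other genes (9.29% and 11.2% for 100-base words), so part of their reads cannot be assigned with certainty.

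The growth hormone and IGF1 axis held 2 calls, and Ghr, Stat5b and Bcl6 of the pathway described above were not among them. Of 31 listed genes of the growth hormone and IGF1 axis, 28 were measured, Igfbp2 and Lepr were lower in CR, against 0.31% of all genes, none was higher, and the median was -0.16. Igfbp2 stood at 138 CPM in CR, 239 in TR and 208 in AL, and its deposited log2 fold change was -0.79 (SE 0.15, 1.73-fold lower, adjusted p 0.000202, log2 mean CPM 7.56), with -0.59 and 0.20 against AL, neither past the threshold. Lepr, the leptin receptor, whose soluble form is released by liver, stood at 3.17, 6.26 and 3.57 CPM, giving -0.98 (SE 0.26, 1.97-fold lower, adjusted p 0.0331, log2 mean CPM 2.24) and -0.17 and 0.81 against AL, the TR value past the threshold. Igf1, the main circulating growth factor of liver, was at 567 CPM in CR and 538 in TR (0.07, adjusted p 0.901), and both diets lay above the 368 CPM of AL liver. Ghr, the growth hormone receptor, gave 0.28 and Stat5b -0.18, with adjusted p of 0.371 and 0.725. The feedback inhibitors Socs2 and Cish, induced by each growth hormone pulse, gave -0.38 and -0.69 with SE of 0.45 and 0.54, and the repressor Bcl6 gave -0.10 with an SE of 0.56. Igfbp1, a binding protein that insulin represses, stood at 6.70 CPM in CR and 3.11 in TR (1.11, SE 0.49, adjusted p 0.380). The approximate 95% intervals of Socs2, Cish, Bcl6 and Igfbp1 each reach past 1 log2 unit in size, so a difference of that size lies within them.

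Genes of insulin signaling and glucose metabolism lay close to 0 as groups. The median log2 fold change was -0.00 over 32 measured insulin signaling genes and -0.07 over 31 measured genes of hepatic glucose output and uptake. Irs2, an insulin receptor substrate, gave -0.50 (adjusted p 0.423). The gluconeogenic enzymes Pck1 and G6pc gave 0.59 (adjusted p 0.531) and 0.03 (adjusted p 0.988). G6pc lay above AL in both diets, by 1.84 in CR and 1.82 in TR. None of 29 glycolysis and pyruvate genes was called, near the 0.469% called over all genes.

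Fatty acid synthesis held no call between the diets: none of 33 measured genes passed, near the 0.469% called over all genes, and the median was -0.05. Fasn, fatty acid synthase, stood at 1352 CPM in CR, 1729 in TR and 443 in AL (-0.35, adjusted p 0.555). Scd1, the stearoyl-CoA desaturase, gave -0.26 (adjusted p 0.600), Srebf1, the lipogenic transcription factor, -0.25 (adjusted p 0.679), and Pnpla3, a lipid droplet acylhydrolase, 0.16 (adjusted p 0.875). Against AL, Pnpla3 gave 4.76 in CR and 4.61 in TR, Srebf1 1.69 and 1.94, Scd1 1.59 and 1.86, and Fasn 1.61 and 1.96. These pairs share the AL libraries, so their likeness is not a result on its own. The approximate 95% interval of CR minus TR ran from -0.30 to 0.62 for Pnpla3 and from -0.75 to 0.04 for Fasn, so a moderate difference in either gene lies within it.

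Single genes of lipid transport did differ. Fabp2, an intestinal-type fatty acid binding protein, stood at 55.3 CPM in CR, 37.4 in TR and 96.0 in AL, with a log2 fold change of 0.56 (SE 0.12, adjusted p 0.00130). Pltp, which moves phospholipids between lipoproteins, stood at 26.7, 44.2 and 34.4 CPM and gave -0.73 (SE 0.17, 1.65-fold lower, adjusted p 0.00926, log2 mean CPM 5.15), with -0.37 and 0.36 against AL, neither past the threshold. It was the only called gene of 36 in the lipoprotein list (median -0.05), where 0.469% of all genes were called. Osbpl5, an oxysterol-binding protein of membrane contact sites, stood at 3.96, 7.95 and 2.59 CPM and gave -1.01 (SE 0.18, 2.01-fold lower, adjusted p 0.000194, log2 mean CPM 2.57), with 0.61 and 1.62 against AL, the latter past the threshold. Esrra, a nuclear receptor of mitochondrial metabolism, gave -0.70 (adjusted p 0.0473). Of 53 measured PPARalpha targets and 10 ketone body genes 0 were called, near the 0.469% called over all genes. At an unadjusted p under 0.05, 5 of the 53 were lower in CR and 1 was higher (5.84% and 4.18% of all genes). Cpt1a gave -0.00 and Pdk4 0.07, and Fgf21 is not listed in the table. A link of these genes to Esrra was not tested.

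Cholesterol synthesis also held no call, near the 0.469% called over all genes. Of 30 genes measured, 23 had a log2 fold change above 0, 10 had an unadjusted p under 0.05 in that direction (4.18% of all genes did) and the median was 0.12. Insig2, which retains the sterol sensor in the endoplasmic reticulum, gave 0.59 (adjusted p 0.125).

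In bile acid synthesis the first step of the classic pathway differed. Cyp7a1 stood at 273 CPM in CR, 409 in TR and 237 in AL, and the authors' deposited table gives -0.58 (SE 0.15, 1.50-fold lower in CR, adjusted p 0.0217, log2 mean CPM 8.41), with 0.21 for CR and 0.79 for TR against AL, the TR value past the threshold. It was the only call among 34 measured bile acid genes (median 0.10), where 0.469% of all genes were called. Cyp8b1, the 12-alpha-hydroxylase that sets the cholic acid share, was at 343 and 334 CPM (0.04, adjusted p 0.971) and under the 523 CPM of AL in both diets. Cyp39a1, an oxysterol hydroxylase, gave -0.62 (adjusted p 0.347) and the efflux pump Abcc4 -0.80 (adjusted p 0.190).

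The called enzymes of steroid and drug metabolism were all lower in CR. Hsd17b6, which oxidises androgen metabolites, stood at 141 CPM in CR, 220 in TR and 49.9 in AL and gave -0.64 (SE 0.17, adjusted p 0.0466), past the threshold against AL in both diets (1.50 and 2.14). Ugt1a5 and Ugt1a9 are glucuronosyltransferases spliced from overlapping transcription units on chromosome 1 with shared last exons. Ugt1a5 stood at 86.6 and 151 CPM, giving -0.80 (SE 0.16, 1.74-fold lower, adjusted p 0.00121, log2 mean CPM 6.89) and 0.56 and 1.36 against AL, both past the threshold. Ugt1a9 gave -0.50 (SE 0.13, 1.42-fold lower, adjusted p 0.0293, log2 mean CPM 6.92) and 0.24 and 0.74, the TR value past the threshold. They were the called members of 54 conjugating enzymes (median 0.07), against 0.31% of all genes called lower. Since 64.0% and 62.0% of their 50-base words occur in other genes, the 2 calls are not separate evidence. Of 49 measured drug-metabolizing P450s and receptors, Cyp2a4 and Cyp2b13 were called, against 0.31% of all genes called lower, and the median was -0.01. At an unadjusted p under 0.05, 11 of the 49 were lower in CR and 5 higher, where 5.84% and 4.18% of all genes passed.

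Id2, Id3 and Smad7, known targets of bone morphogenetic protein (BMP) signaling, were lower in CR. BMPs act through SMAD factors to switch on the Id genes, which encode inhibitors of helix-loop-helix factors, the feedback inhibitor Smad7, and Hamp, which encodes the iron hormone hepcidin. Id3 stood at 25.6 CPM in CR, 56.0 in TR and 28.3 in AL, giving -1.13 (SE 0.29, 2.19-fold lower, adjusted p 0.0300, log2 mean CPM 5.35) and -0.14 and 0.99 against AL, the TR value past the threshold. Id2 stood at 92.5, 144 and 133 CPM and gave -0.64 (SE 0.12, adjusted p 0.000194), here with the CR value past the threshold against AL (-0.52). Smad7 gave -0.71 (SE 0.17, 1.64-fold lower, adjusted p 0.0137, log2 mean CPM 2.83) and -0.43 and 0.28 against AL, neither past the threshold. Id1 (-0.94, SE 0.29, adjusted p 0.113), Smad6 (-0.59, adjusted p 0.493) and Hamp (-0.47, adjusted p 0.0588) were not called. Of 24 measured iron and heme genes (median -0.06) Smad7 was the call, where 0.469% of all genes were called. In that list Tfrc, the transferrin receptor, gave 0.52 (adjusted p 0.105). Grouping Id2 and Id3 with these genes was done after their values were seen.

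In the circadian clock none of 18 measured core clock genes was called, near the 0.469% called over all genes, and their median was 0.08. Nr1d1, which encodes the repressor REV-ERB-alpha, stood at 6.99 CPM in CR, 6.65 in TR and 42.6 in AL, and Dbp, a clock output factor, at 6.24, 5.03 and 34.9 CPM (log2 fold changes 0.07 and 0.31). Per1, a period gene, gave 0.31 (adjusted p 0.786). Rgs16 is a regulator of G protein signaling that is rhythmic in liver and responds to feeding. It was the only call of 19 clock output genes (median -0.09), where 0.469% of all genes were called. It stood at 2.00 CPM in CR, 7.38 in TR and 1.59 in AL, giving -1.88 (SE 0.40, 3.69-fold lower in CR, adjusted p 0.00192, log2 mean CPM 2.23) and 0.33 and 2.22 against AL, the latter past the threshold.

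The chaperone lists of separate compartments had medians on opposite sides of 0, without calls in either list, near the 0.469% called over all genes. Of 24 measured genes of the unfolded protein response of the endoplasmic reticulum, 23 had a log2 fold change above 0 in CR, 6 with an unadjusted p under 0.05 (4.18% of all genes in that direction), and the median was 0.31. Calr, calreticulin, stood at 871 CPM in CR and 647 in TR (0.43, adjusted p 0.238), and Selenos, which exports misfolded proteins, at 56.2 and 44.3 CPM (0.34, adjusted p 0.218). Of 32 cytosolic heat shock genes, 5 had an unadjusted p under 0.05, all lower in CR (5.84% of all genes in that direction), and the median was -0.14. Hspb1, a small heat shock protein, was at 25.3 and 48.8 CPM (-0.95, adjusted p 0.105), and the inducible Hspa1b at 11.2 and 29.2 CPM (-1.39, SE 0.65, adjusted p 0.430). Hspa2, an HSP70 known for its role in germ cells, was not on that list and was called: 1.91 CPM in CR, 4.19 in TR and 1.24 in AL, -1.13 (SE 0.28, 2.19-fold lower, adjusted p 0.0207, log2 mean CPM 1.61), with 0.62 and 1.75 against AL, the latter past the threshold. Gadd45b, a stress sensor of the growth arrest family, gave -1.39 (SE 0.37, 2.62-fold lower, adjusted p 0.0378) at a log2 mean CPM of -0.19. It has no row in the comparison of CR with AL, and TR minus AL was 0.96, not past the threshold. It was the only call of 29 cell cycle genes (median -0.14), where 0.469% of all genes were called. In that list its relative Gadd45g gave -1.19 (adjusted p 0.255) and Myc -0.96 (adjusted p 0.439).

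Of the 59 called genes 35 stood in none of the lists. Among those lower in CR, the smallest adjusted p of the whole table belonged to Tuba8, an alpha-tubulin: 2.90 CPM in CR, 8.19 in TR and 5.35 in AL, -1.50 (SE 0.20, 2.83-fold lower, adjusted p 7.29e-10, log2 mean CPM 2.47). Tuba8 was lower than AL in CR (-0.88) and higher in TR (0.61), both past the threshold. Sybu, which links vesicles to the microtubule motor kinesin, stood at 1.31, 4.97 and 0.566 CPM, giving -1.93 (SE 0.42, 3.80-fold lower, adjusted p 0.00405, log2 mean CPM 1.65) and 1.21 and 3.14 against AL, both past the threshold. Other lower genes of the cytoskeleton, adhesion and nuclear lamina were Sh3bp1 (-0.97), a Rac-inactivating protein that shares 54.7% of its 50-base words with another gene, Ppl (-0.77), the desmosome linker periplakin, Lmna (-0.62), lamin A/C, Bcar1 (-0.55), an integrin adaptor, Kalrn (-0.50), a GTPase exchange factor, and Als2cl (-0.47). Chromatin genes were H1f2 (-0.79), a linker histone, Phf1 (-0.50), a Polycomb cofactor, and Mllt6 (-0.40). Membrane and signaling genes were Rnf186 (-0.88), Nos3 (-0.81), the endothelial nitric oxide synthase, Slc39a6 (-0.77), a zinc transporter, Unc5b (-0.65), a netrin receptor, and Notum (-0.46), a secreted Wnt inhibitor. The remaining lower genes were Lratd2 (-0.86), Ccdc82 (-0.54) and Klhdc7a (-0.48). Lratd2 and A1bg are neighbours on chromosome 15, 43.1 kb apart with no coding gene between them.

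Of the higher genes outside the lists, BC049987, an uncharacterised gene, stood at 8.77 CPM in CR, 2.71 in TR and 10.4 in AL, giving 1.70 (SE 0.37, 3.24-fold, adjusted p 0.00405, log2 mean CPM 2.52) and -0.25 and -1.94 against AL, the TR value past the threshold. Zfp979, a zinc finger gene, stood at 3.39, 1.21 and 4.02 CPM, giving 1.49 (SE 0.33, 2.81-fold, adjusted p 0.00531, log2 mean CPM 1.20) and -0.25 and -1.73, again with TR past the threshold. Zfp979 shares 26.7% of its 50-base words with other zinc finger transcripts. Smaller differences were those of Zfand4 (1.04), Dpy19l3 (1.04), a C-mannosyltransferase, Smagp (0.60), an adhesion glycoprotein, Insc (0.56), the spindle orientation adaptor, Fbxo36 (0.56), Arhgap26 (0.53), a GTPase-activating protein, and Scfd1 (0.43), a vesicle fusion factor. Cela1, an elastase best known from pancreas, stood at 9.37 CPM in CR, 4.61 in TR and 4.64 in AL, giving 1.02 (SE 0.21, 2.03-fold, adjusted p 0.00160, log2 mean CPM 2.80) and 1.01 and -0.01 against AL, the CR value past the threshold. It was the only one of 9 listed pancreatic acinar markers in the table. Smagp and Cela1 lie 37.5 kb apart on chromosome 15 with 1 coding gene between them.

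**Figure D2:**
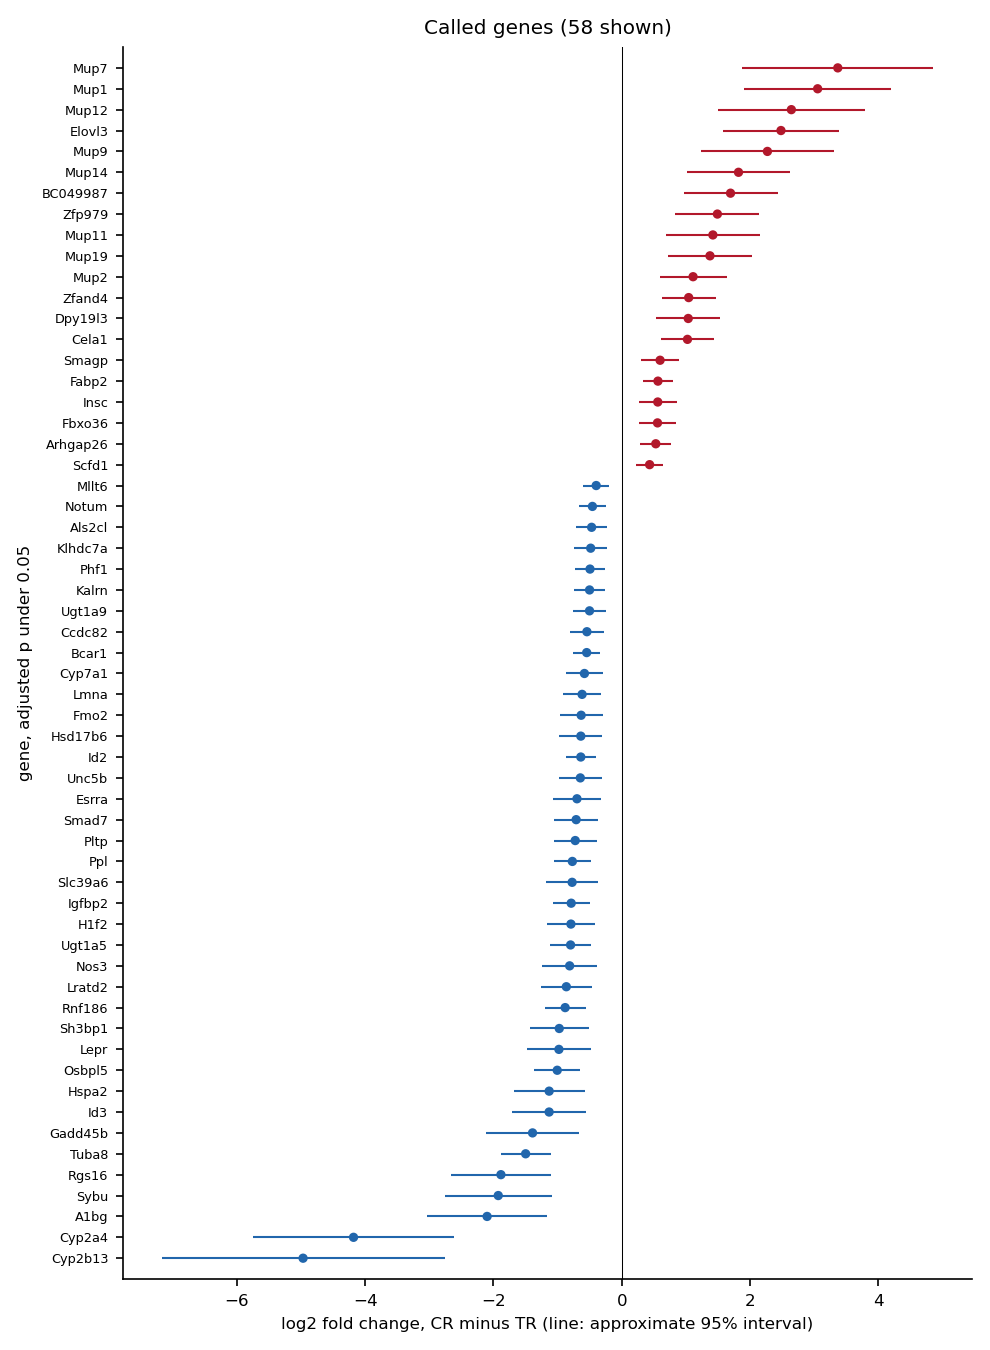
Log2 fold change of CR minus TR liver (horizontal axis) for 58 called genes (vertical axis), with lines for the approximate 95% interval, red for higher and blue for lower in CR. The intervals are widest for Cyp2b13 (-7.17 to -2.76) and narrow for genes with differences near 0.4, such as Mllt6 (-0.60 to -0.19).

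The defining markers of hepatocytes were present, and no cell type list held more than 1 call, where 0.469% of all genes were called. All 9 hepatocyte markers were measured and none was called (median 0.08), with Alb, albumin, at 104424 CPM in CR and 111941 in TR. In bulk liver, fewer cells of a type and less RNA per cell cannot be told apart. None of the markers of Kupffer cells (12 measured, median 0.22, summed level 272 CPM in CR and 236 in TR), lymphocytes (8 of 14, median 0.33, 43.0 and 36.0 CPM), liver endothelium (10, median 0.11, 260 and 249 CPM) or stellate cells (11, median 0.06, 309 and 279 CPM) was called. The same was true of cholangiocytes (6 of 8, median -0.16), erythroid cells (5 of 7, median -0.47), adipocytes (4 of 8, median 0.25) and neutrophils (1 of 9). Skeletal muscle markers were not in the table. The part of cell mixture in the called genes was not tested further.

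Setting each called gene beside AL shows which diet lay away from free feeding. The background is broad: 1409 of 12636 genes (11.2%) were called in CR against AL and 2397 of 12691 (18.9%) in TR against AL. Of the 20 genes higher in CR, 8 were called against AL in TR but not in CR (BC049987, Dpy19l3, Mup2, Mup9, Scfd1, Smagp, Zfand4 and Zfp979), all under AL in TR. A further 8 were called in both diets, 3 in CR but not in TR (Arhgap26, Cela1 and Insc), and Fbxo36 in neither. The AL level lay between the diets for 9 of the 20, above both for 10 and under both for Insc. Of the 39 genes lower in CR, 17 were called in TR but not in CR, with Cyp7a1, Id3, Lepr, Rgs16 and Esrra among them, 8 in both, 3 in CR but not in TR (Id2, Klhdc7a and Phf1) and 11 in neither. The AL level lay between the diets for 18 of the 39, under both for 19 and above both for 2. The differences between a call in one diet and none in the other were not tested beyond CR minus TR itself, and these comparisons share their libraries.

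Examples show different arrangements. For Cyp7a1 the CR level (273 CPM) lay near AL (237 CPM) and TR stood apart at 409 CPM. For Id3 the levels were 25.6, 28.3 and 56.0 CPM in the same order, with AL between the diets but near CR. For Igfbp2 AL (208 CPM) lay between CR (138 CPM) and TR (239 CPM). For Cyp2a4 and Sybu CR lay on the same side of AL as TR, at a smaller distance.

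**Figure D3:**
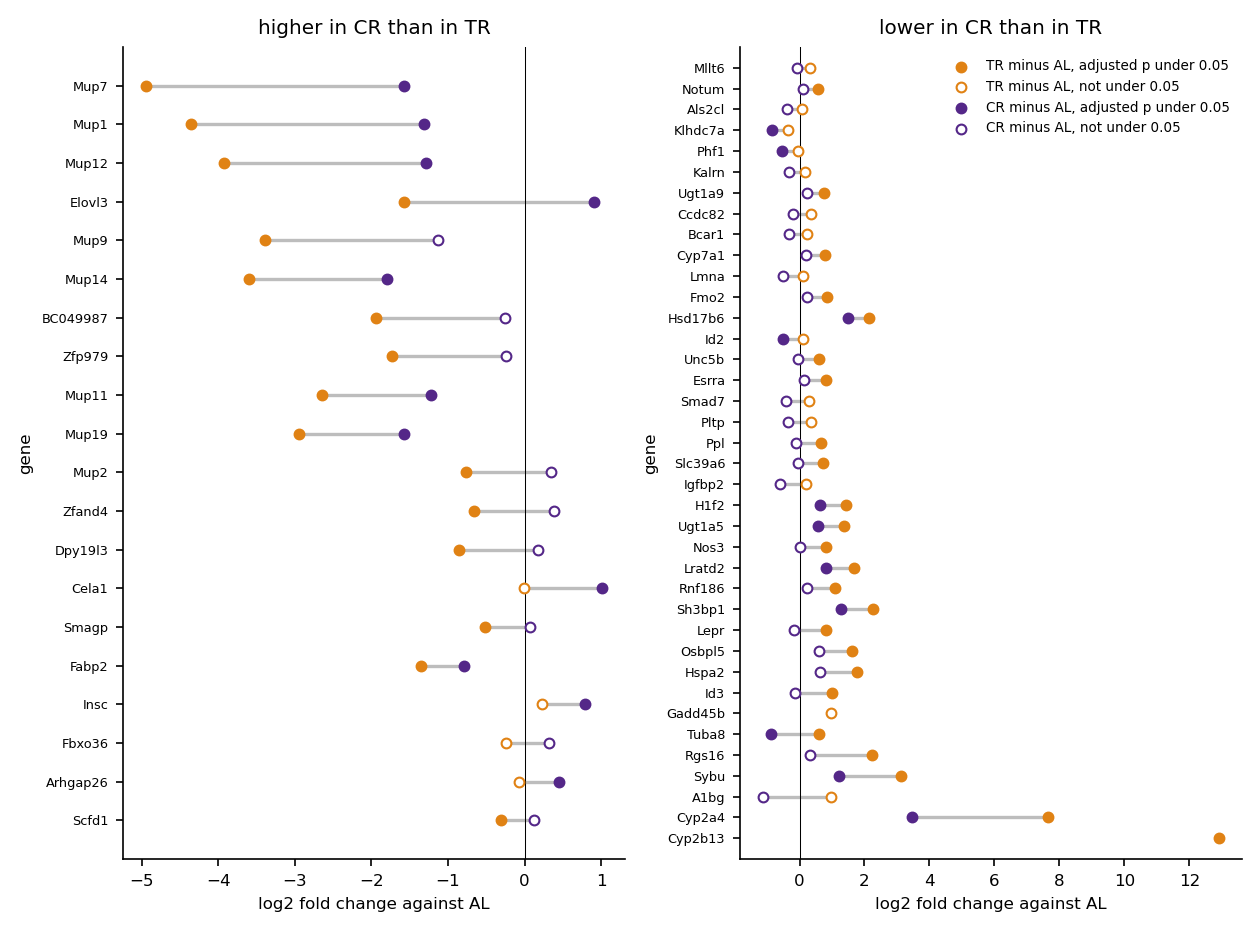
Log2 fold change against AL liver (horizontal axis) of 58 called genes (vertical axis) in CR (purple) and TR (orange), filled where the adjusted p is under 0.05 and joined by a grey line, with genes higher in CR than TR on the left and lower on the right. For Mup7 both diets lie under AL, TR at -4.95 and CR at -1.58, and for Elovl3 they lie on opposite sides, and Cyp2b13 and Gadd45b have no CR value.

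Of the 50 lists, 11 of them of cell type markers, 18 had a called member and 32 had none. Beyond those named, no call was found among 103 respiratory chain subunits (median 0.02), 85 cytosolic ribosomal proteins (-0.00), 78 mitochondrial ribosomal proteins (0.03), 47 proteasome subunits (0.09), 34 autophagy genes (0.06), 43 genes of the urea cycle and amino acid catabolism (0.01), 24 of the methionine cycle (-0.05), 28 acute phase genes (-0.01) or 28 interferon-induced genes (-0.10). Over all genes 0.469% were called, so lists of these sizes without a call lie near that share. At an unadjusted p under 0.05, 8 of the 103 and 8 of the 85 were lower in CR and 0 of either were higher. Over all genes 5.84% were lower and 4.18% higher at that cutoff. Among 22 genes of antigen presentation 20 had a log2 fold change under 0, 6 with an unadjusted p under 0.05 (5.84% of all genes in that direction), and the median was -0.21. In that list H2-Q1 gave -0.50 (adjusted p 0.123) and the peptide transporter gene Tap2 -0.44 (adjusted p 0.255). The plot of list members shows how few of the many measured genes of each pathway lay far from 0.

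**Figure D4:**
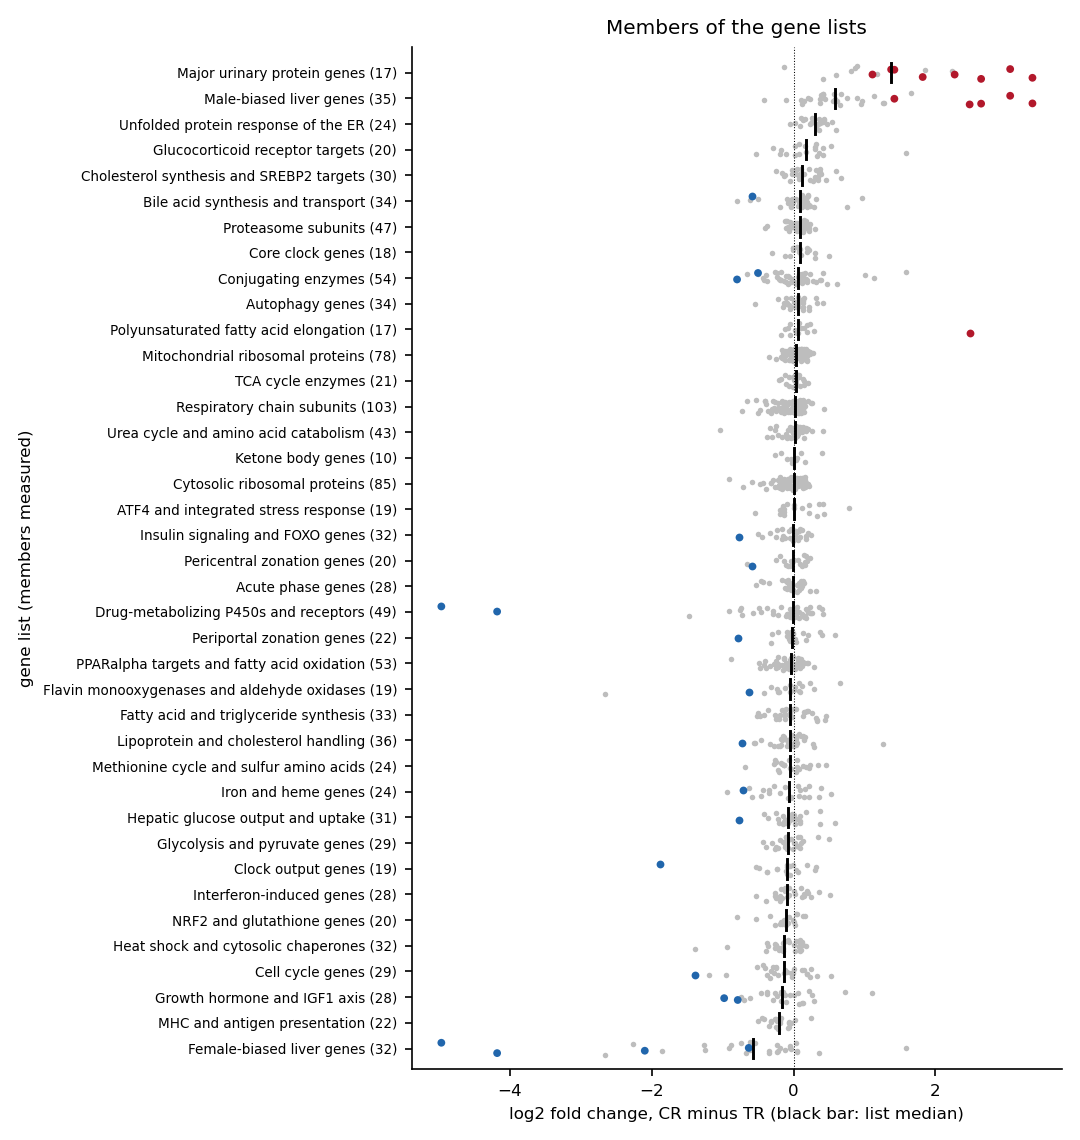
Log2 fold change of CR minus TR liver (horizontal axis) for each measured member of the gene lists other than cell type markers (vertical axis, with the number measured), red and blue for genes called higher and lower in CR, grey for genes not called, and a black bar for the list median. The major urinary protein list has the highest median, 1.37, and the female-biased list the lowest, -0.57.

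At the transcript level 84 of 26042 transcripts (0.323%) were called in the authors' deposited table, 41 higher and 43 lower in CR, and none passed against the F distribution with 1 and 10 degrees of freedom, where the smallest adjusted p was 0.446 and 739 had an unadjusted p under 0.05. For the called genes 107 transcripts were tested, 106 had the direction of their gene, and 19 transcripts of 17 genes were called. No gene had called transcripts in both directions. In most the called transcript was close to the whole gene: Elovl3-201 (2.47), Cyp2a4-201 (-4.19), Tuba8-201 (-1.51), Ppl-201 (-0.78), Mup12-201 (2.63), Ugt1a5-201 (-0.81), Id2-201 (-0.63), Id3-201 (-1.16), Rgs16-201 (-1.90), Pltp-201 (-0.73), Fabp2-201 (0.55) and Mup7-201 (3.43), beside the minor Mup7-202 (3.52). Igfbp2 was called through both of its main transcripts, Igfbp2-201 (-0.90) and Igfbp2-202 (-0.72).

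In 3 major urinary protein genes the called transcript made up a larger share of the fitted level in CR than in TR, by more than 10 percentage points. Mup14-201 gave 3.87 (SE 0.97, adjusted p 0.0249) and made up 62.3% of the gene's fitted level in CR and 15.0% in TR. Mup11-202 gave 2.01 (SE 0.43, adjusted p 0.00249) and made up 45.0% and 29.9%. Mup9-208 gave 2.77 and made up 95.8% and 67.9%. The shares themselves were not tested, and the copies share most of their sequence, as given above.

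The other 65 called transcripts belong to genes not called, or in the case of Sept2-215 not in the gene table. Of these, 50 had a fitted level under 0.1 CPM in 1 of the groups, so their fold changes depend on the prior count of the fit. The low levels given below are computed from these fold changes and depend on it as well. They tell which group was near 0 and are not measured values. The 14 named here are from the 15 with the smallest adjusted p. Shoc2-201 was at 0.00486 CPM in CR and 5.59 in TR, Klhl22-207 at 0.00481 and 7.43, Trmt1-203 at 0.00498 and 3.29 and Steap2-209 at 0.00507 and 2.08. The reverse held for Tcf7l2-202 (1.95 and 0.00507 CPM), P4ha2-215 (1.66 and 0.00511), Sgsh-205 (2.58 and 0.00495), 9530068E07Rik-202 (19.5 and 0.00475) and Kdm4a-202 (2.32 and 0.00498). It also held for Tti1-202 (4.76 and 0.00484 CPM), Zc3h18-205 (4.49 and 0.00484), Sept2-215 (4.74 and 0.00486) and Ubp1-202 (3.36 and 0.00489). Where their genes were listed, the gene's own log2 fold change was between -0.54 (Steap2) and 0.24 (Tcf7l2). Gss-201, the last of the named transcripts, codes for glutathione synthetase and was well measured in both groups, at 19.8 CPM in CR and 38.5 in TR (-0.96, SE 0.18, adjusted p 0.000174), 32.9% and 59.3% of a gene level that did not differ past the threshold (-0.11, adjusted p 0.798).

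A few more transcripts with levels of at least 0.1 CPM in both groups were chosen after their values were seen. Apoe-202, a transcript without coding annotation of the apolipoprotein E gene, was at 2148 CPM in CR and 3478 in TR (-0.70, adjusted p 0.00762), and Nr1h2-201, of the liver X receptor beta gene, at 1.56 and 5.45 CPM (-1.80, adjusted p 0.00498). Lifr-202, of the leukaemia inhibitory factor receptor gene, was at 83.2 and 42.2 CPM (0.98, adjusted p 0.0177). Hamp-201 was called at -0.48 (adjusted p 0.0344) where the Hamp gene missed the threshold.

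**Figure D5:**
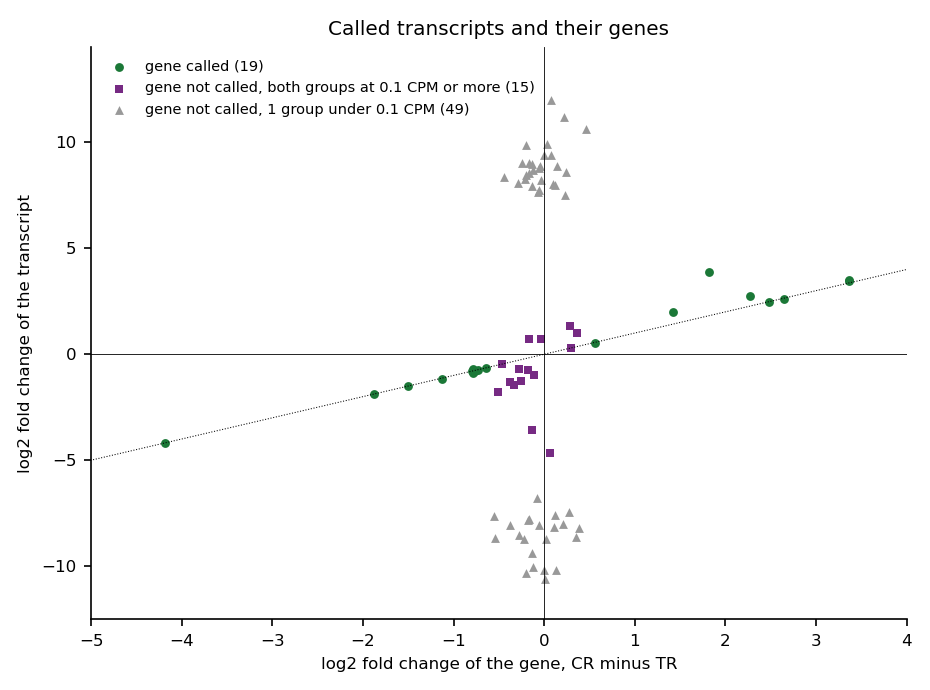
Log2 fold change of each called transcript (vertical axis) against that of its gene (horizontal axis), CR minus TR liver, with a dotted line where both are equal, for the 83 called transcripts whose gene is in the gene table. The 19 transcripts of called genes (green) lie near the line, with Mup14-201, Mup11-202 and Mup9-208 farthest above it, and the grey triangles are transcripts under 0.1 CPM in 1 group, whose fold size depends on the prior count.

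In inguinal fat 135 of 14699 genes (0.918%) were called between CR and TR, 9 higher and 126 lower. None of the 44 called liver genes listed in that table was among them, which is close to that background share, and the overlap was not tested. The difference of the log2 fold changes, liver minus fat, was tested with the approximate errors over 11878 genes, of which 147 (1.24%) passed, and 8 of the called liver genes were among these. The called genes were picked by the liver value that enters this difference, so their count cannot be set against the 1.24%. With a tissue correlation of -0.3 in place of 0 the count of called liver genes was 3 (BC049987, Mup11 and Mup14). Elovl3 gave 2.48 in liver and 0.08 in fat, Tuba8 -1.50 and 0.20, Cela1 1.02 and -0.45, BC049987 1.70 and -0.56, and Gadd45b -1.39 and 0.35. Mup7 gave 3.37 and -1.92, Mup11 1.42 and -2.52, and Mup14 1.82 and -1.92. In the fat table all 9 hepatocyte markers were called lower in CR, by log2 fold changes of -4.91 to -6.84, and their part in the values of the major urinary protein genes in fat was not tested.

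Promoter windows were at hand for 45 of the 59 called genes and were searched for 13 motifs on both strands. ATCAATA was found in 8 of the 45, namely 6 major urinary protein genes, A1bg and Zfp979, where 1.86% of all windows hold it. The STAT5 motif TTCNNNGAA was found in A1bg and Osbpl5 (7.02% of all windows), the BMP-SMAD motif GGCGCC in Esrra, Id2, Insc and Mllt6 (9.59%), the E-box CACGTG in A1bg, Gadd45b, Igfbp2, Osbpl5 and Tuba8 (6.02%), and the FOXA motif TGTTTAC in Fmo2 (3.17%). The STAT6-type site, whose arms stand 4 bases apart, was found in Mup7, Mup11, Mup14, Osbpl5 and Zfand4 (5.85%). No called gene held the D-box TTATGTAA (0.819%), the HNF4A motif CAAAGTCCA (0.384%), the CREB motif TGACGTCA (1.55%), the C/EBP motif TTGCGCAA (0.164%), the SMAD motif GTCTAGAC (0.167%), the ERR motif TCAAGGTCA (0.387%) or the direct repeat DR1 (0.0152%). The Mup windows are near copies and do not count as separate finds. Among the called genes without a window were Arhgap26, Cyp7a1, Elovl3, Lratd2, Mup1, Mup12, Nos3, Notum, Ppl, Sh3bp1, Slc39a6, Smad7 and Sybu.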

How the data were processed

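Total RNA was extracted with Trizol and sequenced from Illumina TruSeq libraries, per the labels' protocols. Per the submitters' processing notes, bcl2fastq 2.20, STAR 2.5.3a, RSEM (version not given in the sources used here) and the build GRCm38.p5 were used. Each table holds the authors' edgeR comparison of 2 groups by a generalized linear model, per the file headers, and the sources used here do not give its version, filter, normalization or annotation. The deposited log2 columns hold, per the file headers, a log2 fold change and a log2 mean CPM for each feature. The deposited score is the likelihood-ratio statistic of the authors' model, per the file headers. The deposited p-value columns are the unadjusted p-value and its false discovery rate (the adjusted p), per the file headers.

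No model was refitted: the authors' deposited adjusted p under 0.05, 2-sided and over all features of a table, was the test. The design had allowed for counts per library, which these tables do not hold. The deposited p-value matched the chi-square tail of the statistic to within 1.27e-10, and Benjamini-Hochberg adjustment gave the same number of 59 calls. From the tables were computed an approximate SE (the log2 fold change, unsigned, divided by the root of the statistic), approximate 95% intervals (1.96 SE) and fitted group levels (the mean CPM split by the fold change, which takes groups of equal weight). AL levels come from tables normalized separately: the same CR and TR levels differed between tables by a median of -0.04 and -0.05 log2 units. For the tissue difference, liver minus fat was divided by its combined SE (root of the sum of squares) and adjusted over genes, with both tissues of a mouse taken as uncorrelated. The steps were tested on simulated data.

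Members, lists, tests and naming rule were chosen with earlier results of these data known. Named are the called genes, with full values for the 10 highest and 10 lowest among those whose log2 mean CPM was 0 or more, and for called list members, 31 genes whatever their values, called transcripts of called genes, and 15 further transcripts by adjusted p. Results for 1 called gene and a few other genes and transcripts are not reported here. Genes named beyond these were chosen after their values were seen. Gene positions came from GENCODE M21 (GRCm38), matched by identifier for all 12593 genes, promoter windows from RefSeq (GRCm38.p6), matched by symbol. Shared sequence was counted as the share of 50-base words of a gene's transcripts found in other genes. CR and TR liver labels share 1 animal number, counted as different mice. Python 3.11.15, pandas 2.3.3, numpy 2.4.6, scipy 1.17.1 and matplotlib 3.10.9 were used. Alternatives were other thresholds and filters on low values, an F reference, subtraction of the median, the most abundant transcript in place of the gene, and other tissue correlations.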

Additional observations from a re-analysis of the deposited data

Results flagged for a closer look

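For 8 called liver genes the difference between CR and TR was not the same in liver as in inguinal fat, by the approximate test of liver minus fat on the log2 scale, adjusted over 11878 genes. Called genes were picked by the liver value that enters this difference, so their number is not a result on its own. Higher in liver by this measure were Mup7 (5.29, SE 1.44, adjusted p 0.0257), Mup11 (3.94, SE 0.82, adjusted p 0.00674), Mup14 (3.74, SE 0.79, adjusted p 0.00674), Elovl3 (2.40, SE 0.62, adjusted p 0.0171), BC049987 (2.25, SE 0.52, adjusted p 0.00816) and Cela1 (1.47, SE 0.40, adjusted p 0.0224). Lower were Gadd45b (-1.74, SE 0.51, adjusted p 0.0473) and Tuba8 (-1.70, SE 0.45, adjusted p 0.0208). For the major urinary protein genes the fat value is itself under 0, beside hepatocyte markers that were all lower in CR fat, and the part of those markers in the difference was not tested.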

How the results depend on the processing

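The number of called genes moved with the threshold: 59 at an adjusted p under 0.05, 29 under 0.01, 91 under 0.10 and 24 with a log2 fold change of at least 1 in size. Genes higher in CR were 12 under 0.01 and 37 under 0.10, and 12 without the major urinary protein genes, and genes lower in CR were 17 under 0.01 and 10 with a log2 fold change of at least 1 in size. Transcript calls were 47 under 0.01 (24 higher, 23 lower), 31 at a log2 mean CPM of at least 2 (13 higher, 18 lower) and 34 without those under 0.1 CPM in 1 group. Members of the male-biased list called higher were 8 under 0.10. Read against an F distribution with 1 and 10 degrees of freedom the deposited edgeR statistics gave 0 called genes, 0 higher, 0 lower, 0 transcripts in either direction and 0 members of any list, the major urinary protein, male-biased and female-biased lists included, with 845 genes and 739 transcripts at an unadjusted p under 0.05. With 1 and 20 degrees of freedom 1 gene and 3 transcripts passed, and with 1 and 30, 15 genes and 23 transcripts. These settings, leaving out the major urinary protein genes and leaving out transcripts under 0.1 CPM were chosen after seeing the data. The gene count was 60 with the median subtracted, with Insc at an adjusted p of 0.0505, 58 at a log2 mean CPM of at least 0 and 54 at 2. CR minus AL less TR minus AL kept the direction in 57 of 57 called genes that have both values. The most abundant transcript of a called gene passed in 16 and not in 42, and kept the direction in all 58. The liver minus fat difference covered 180 genes with a tissue correlation of 0.3 and 121 with -0.3, and of the called liver genes 10 and 3. Leaving out a replicate was not run, since no value per library was at hand, and depth per library is unknown. No paired analysis was possible because the deposited tables hold no value per library. CR and TR libraries were counted as different mice, so the pairing in the labels is of liver with fat. It is not complete, since not every TR liver library has a TR fat library of the same animal number. That pairing entered only as the assumed tissue correlations.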
